A study of Arabidopsis thaliana with 26 samples.

Results

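The change of the light effect between 48 h and 72 h compares 2 late times of the same high light exposure in whole seedlings of Arabidopsis thaliana Col-0. It takes, for each gene, the difference between high light and growth light at 72 h and subtracts from it the same difference at 48 h. A value near 0 means that high light set the gene apart from growth light by the same factor at both times, so the comparison asks how near the response was to a steady state after 2 days. The libraries were chosen by their labels alone, as the 8 that stand in these 4 groups, out of 26 libraries in the series.

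The 4 groups were high light for 72 h, growth light for 72 h, high light for 48 h and growth light for 48 h, with 2 libraries in each. All seedlings were wild type and had 7 days of uninterrupted light at 60 µmol photons m-2 s-1 (growth light) and 22 °C before the treatment started. High light was 1200 µmol photons m-2 s-1 with the leaf temperature given as 22 °C, and the growth light seedlings stayed at 60. Each library pools RNA from 25 plants, and whether both libraries of a group stem from independent cultures is not stated in the labels. P-values therefore reflect the spread between these libraries, part of which may be technical. Seedlings of the 72 h groups were also a day older than those of the 48 h groups, and the growth light seedlings of each time are the reference for that age. Messenger RNA was measured in bulk, so fewer cells of a type and less RNA per cell cannot be told apart.

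Plants that stay in strong light acclimate over days. They shrink the light-harvesting antenna, raise photoprotective proteins and carotenoids that turn excess excitation into heat, and fill leaf cells with anthocyanin, a red flavonoid pigment that screens light. Early stress transcripts, such as those of heat shock factors and reactive oxygen signalling, are known to peak soon after a shift and to subside, whereas transcripts of the pigment and antenna genes follow more slowly.

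Counts per gene were deposited by the authors without normalization, and 21449 of 33602 listed genes had enough counts to be tested. Levels are given as CPM, the share of a library's counts on a scale of 1e6, after scaling by edgeR's TMM method, and differences as log2 values ± SE from edgeR's quasi-likelihood fit to all 26 libraries. Calls rest on a Benjamini-Hochberg adjusted p below 0.05 over all tested genes. The 72 h libraries were shallower, with 13637677 and 17162530 counts in high light and 16994443 and 16132345 in growth light, against 25171425 and 24798060 in high light and 24324813 and 26936142 in growth light at 48 h. The libraries held shoot and root transcripts as the label says: RBCS1A, the small subunit of Rubisco, stood between 12739 and 18400 CPM over the 8 libraries, and the markers of root hairs and of the root endodermis were detected in each.

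For most genes the light effect at 72 h was within 2-fold of that at 48 h. The change passed the test for 244 genes, 1.14% of those tested, of which 138 were higher at 72 h (0.643%) and 106 were lower (0.494%), by edgeR's quasi-likelihood test. Among them 66 changed by 2-fold or more, 26 higher and 40 lower. At an unadjusted p below 0.05 there were 2880 genes. For 16365 genes, 76.3% of those tested, the 95% interval of the change lay wholly within 2-fold in either direction. A further 4964 genes were neither called nor bounded in this way, so for those a change of 2-fold was not excluded at this depth and replication.

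The high light effect itself was broad at both times. High light against growth light was called for 9567 genes at 72 h (44.6%), 4780 higher (22.3%) and 4787 lower (22.3%), and for 10184 genes at 48 h (47.5%), 5261 higher (24.5%) and 4923 lower (23%). Of these, 7314 were called in the same direction at both times, which is 76.5% of the calls at 72 h and 71.8% of those at 48 h, and 38 were called in opposite directions. The median size of the effect over all tested genes was 0.30 log2 at 72 h and 0.29 at 48 h. Across genes the effects of the 2 times had a Pearson correlation of 0.858, a description of these 8 libraries in which genes are not independent replicates.

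**Figure D1:**
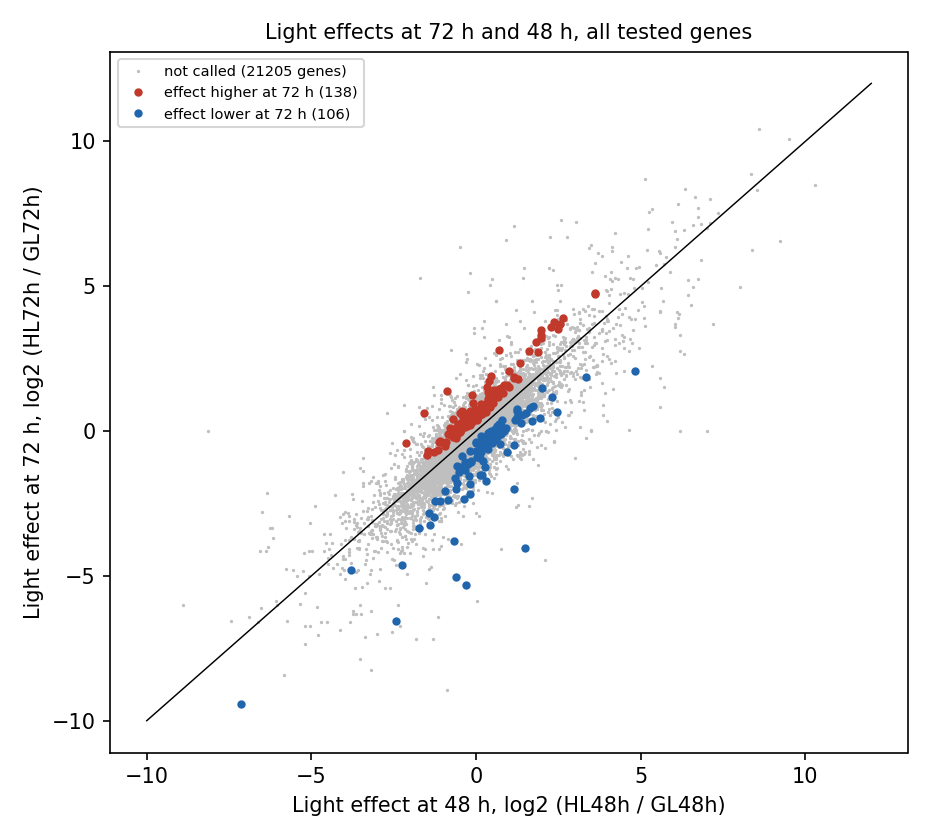
Light effect at 72 h (y axis, log2 of high light over growth light) against the light effect at 48 h (x axis, same unit), 1 point per tested gene, with the line of equal effects. Genes called higher at 72 h (138) lie above the line and genes called lower (106) below it, while the other points follow the line.

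The 244 called genes did not all move away from the growth light level. In 104 the effect kept its sign and was larger at 72 h, 70 of them with a positive effect and 34 with a negative one. In 45 it kept its sign and was smaller at 72 h, 25 with a positive effect and 20 with a negative one. In the remaining 95 the sign of the estimated effect differed between the times, and in 31 of these the effect was called in opposite directions at 72 h and at 48 h. In all 244 genes the 4 pairings of high light and growth light libraries at 72 h lay wholly above or wholly below the 4 pairings at 48 h. The calls rest on the same libraries, so this separation is no further support for them. Some uncalled genes were apart in the same way, such as FER1, NCED3 and GPT2, and others, such as HSFA2, were not. The share of all tested genes with separate pairings was not counted.

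Of the 5 intervals between neighbouring times, the last one had the fewest calls. The light effect changed in 6347 genes between 0.5 h and 6 h (29.6%), in 2062 between 6 h and 12 h (9.61%), in 3165 between 12 h and 24 h (14.8%), in 2648 between 24 h and 48 h (12.3%) and in 244 between 48 h and 72 h (1.14%). Changes of 2-fold or more numbered 1649, 412, 711, 558 and 66 over the same intervals. Other measures differed less between them. In the same order, the share of genes whose change was bounded within 2-fold was 65.5, 73.6, 73.4, 74.0 and 76.3%. The median absolute change was 0.32, 0.21, 0.24, 0.22 and 0.17 log2. Genes with an unadjusted p below 0.05 by edgeR numbered 8392, 4938, 6309, 5571 and 2880. The intervals run over 5.5, 6, 12, 24 and 24 h, neighbouring intervals share the libraries of the time between them, and the difference between these counts was not tested. Depth moved with the last interval, because the 72 h libraries were the shallower ones. With every library thinned at random to the smallest total, an alternative added after the data were seen, the calls were 2065 of 20629 tested genes between 24 h and 48 h and 188 between 48 h and 72 h.

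**Figure D2:**
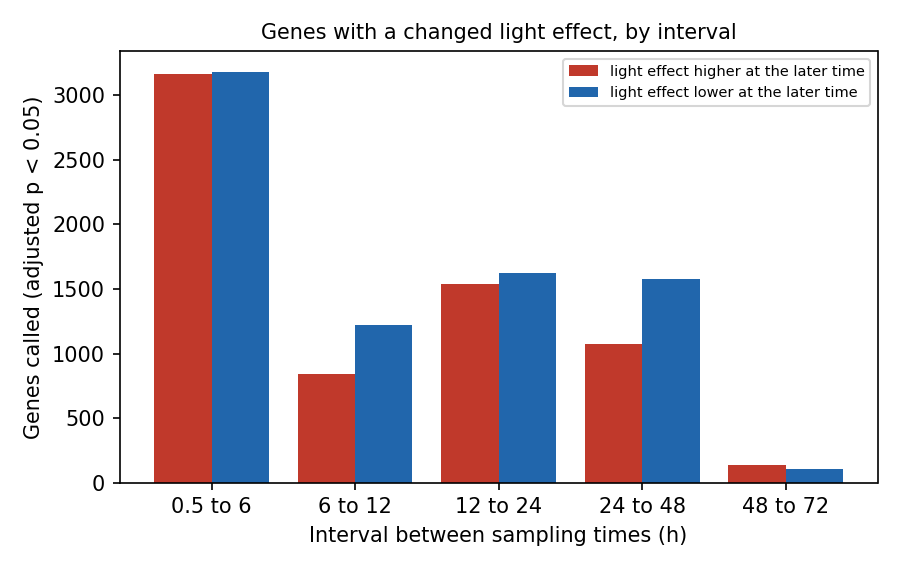
Number of genes (y axis) whose light effect was called higher (red) or lower (blue) at the later time, for each interval between sampling times in hours (x axis). The bars for 48 to 72 h, 138 higher and 106 lower, are the shortest of the 5 pairs.

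Genes that responded strongly at 24 h, a time outside the 4 groups, had median effects of the same direction at 48 h and 72 h. At 24 h the effect was called for 10685 genes (49.8%), 5568 higher (26%) and 5117 lower (23.9%). The 1516 genes that were at least 2-fold higher in high light at 24 h had a median effect of 1.69 log2 at 24 h, 1.21 at 48 h and 1.198 at 72 h. Between 48 h and 72 h 28 of them were called higher and 18 lower. The 1610 genes that were at least 2-fold lower at 24 h had medians of -1.62, -1.33 and -1.53 at 24, 48 and 72 h, with 6 called higher and 20 lower in the last interval. The 24 h medians are shown only to describe the choice, since that time selected the genes.

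The number of calls depended on single libraries and on the libraries fitted together. With the 8 libraries fitted alone 1277 genes were called, among them all 244. Leaving out any 1 of the 8 libraries gave fewer calls, from 15 without the first 72 h high light library to 101 without the first 48 h growth light library. Of the 47 called genes picked by the naming rule 6 were called whichever library was left out (AT3G05730, AT3G16670, AT4, BCH1, BGLU1 and LHCB4.3), and each of the rest lost its call without at least 1 library.

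A change of effect can come from either light, and the 244 genes differed in this. The direct comparison of 72 h with 48 h of high light called 3252 genes (15.2%), 1422 higher (6.63%) and 1830 lower (8.53%), and that of 72 h with 48 h of growth light called 1191 (5.55%), 524 higher (2.44%) and 667 lower (3.11%). Of the 138 genes with a higher effect, 92 were called higher in high light with no call in growth light, 35 were called lower in growth light with no call in high light, 7 had both calls and 4 neither. Of the 106 genes with a lower effect, 79 were called lower in high light only, 15 higher in growth light only, 7 had both of these calls, 3 fell in both lights and 2 had neither call. These comparisons use the same libraries as the change of effect and are given to show which side moved.

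**Figure D3:**
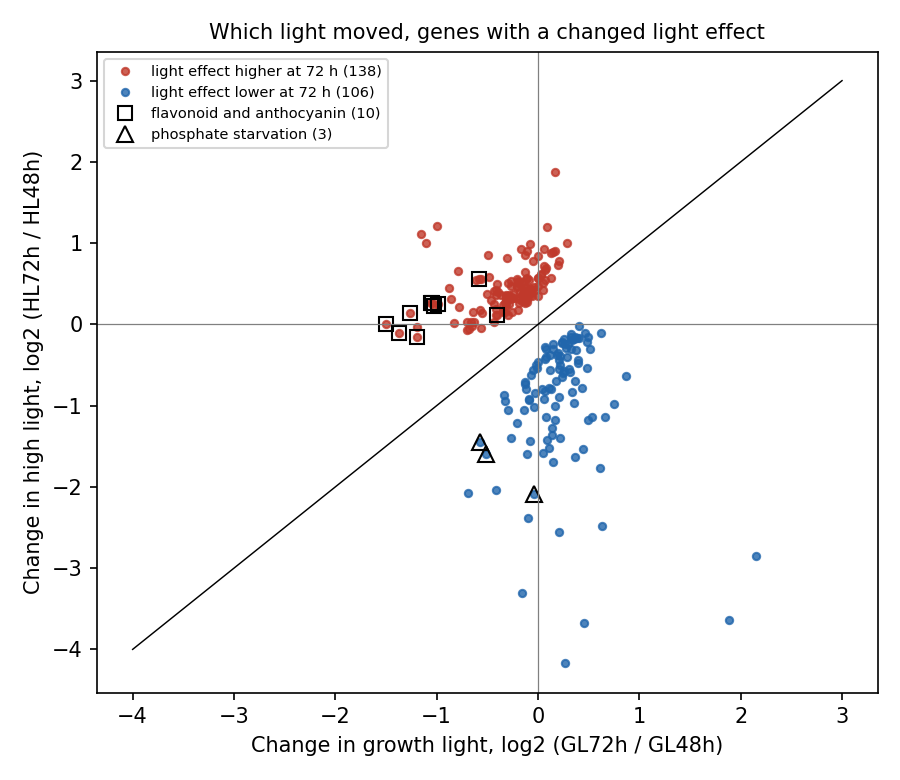
Change in high light (y axis, log2 of 72 h over 48 h) against change in growth light (x axis, same unit) for the 244 called genes, with the line on which both changes are equal. The called anthocyanin genes (squares) lie left of 0 on the growth light axis, and the 3 called phosphate starvation genes (triangles) lie well below 0 on the high light axis.

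The flavonoid and anthocyanin list held the most called genes of the pathway lists used here. In this list 10 of 30 genes were called higher and none lower, the median change was 0.53 against -0.01 over all tested genes, and 26 of 30 values were positive. Over all 21449 tested genes 10362 values were positive and 11086 negative, the background for this and the other lists. The shares of all genes called in each light are those given above. The median light effect of the list was 1.95 log2 at 72 h and 1.49 at 48 h. In high light the list stood nearly level, with a median change of 0.06 and 1 gene called higher (TT8), whereas in growth light its median change was -0.57 and 16 of 30 genes were called lower. With 1 library left out, 0 to 4 of the 30 genes were called, and with the 8 libraries fitted alone 18.

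PAP1 is the MYB transcription factor that switches on the late anthocyanin genes. It stood at 42.4 and 39.1 CPM in high light and 2.91 and 4.36 CPM in growth light at 72 h, against 41.0 and 39.8 CPM in high light and 9.44 and 10.9 CPM in growth light at 48 h. The high light libraries of both times overlapped, and both growth light libraries at 72 h were below both at 48 h. Its light effect was 3.49 log2 at 72 h and 1.98 at 48 h, a change of 1.51 ± 0.33 (adjusted p = 0.03, edgeR). TT8, the bHLH partner of this MYB factor, stood at 39.6 and 42.4 CPM in high light and 3.02 and 3.33 CPM in growth light at 72 h, and at 27.0 and 28.8 CPM in high light and 5.06 and 4.48 CPM in growth light at 48 h. Here the levels lay apart in both lights, since the 72 h libraries lay above the 48 h ones in high light and below them in growth light, and the change was 1.14 ± 0.24 (adjusted p = 0.0228, edgeR).

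DFR, which makes leucoanthocyanidins, had 533 and 532 CPM in high light and 53.2 and 54.7 CPM in growth light at 72 h, against 412 and 476 CPM in high light and 115 and 109 CPM in growth light at 48 h. UGT79B1, which adds xylose to the anthocyanin sugar, had 205 and 202 CPM in high light and 14.6 and 15.4 CPM in growth light at 72 h, against 179 and 191 CPM in high light and 36.3 and 35.9 CPM in growth light at 48 h. In both genes the growth light libraries at 72 h held less than those at 48 h with no overlap, and every high light library exceeded every growth light library. The change was 1.32 ± 0.28 for DFR and 1.4003 ± 0.29 for UGT79B1, with adjusted p = 0.0246 and 0.0218 by edgeR.

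The other called members act at late and early steps. LDOX, which oxidises leucoanthocyanidins to anthocyanidins, changed by 1.25 ± 0.28, TT7, the flavonoid 3'-hydroxylase, by 1.23 ± 0.22, and GSTF12, the glutathione transferase that carries anthocyanin to the vacuole, by 1.31 ± 0.27. The acyltransferase 3AT1 changed by 1.26 ± 0.29, the glucosyltransferase UGT75C1 by 1.04 ± 0.25 and CHIL, a helper of chalcone formation, by 0.52 ± 0.12. CHS, the entry enzyme of the flavonoid pathway, stood at 1751 and 1595 CPM in high light and 403 and 401 CPM in growth light at 72 h, against 1887 and 2132 CPM in high light and 797 and 821 CPM in growth light at 48 h, and its value of 0.74 ± 0.19 did not pass the test (adjusted p = 0.0563, edgeR). Smaller values were 0.38 for chalcone isomerase (CHI) and 0.35 for flavonol synthase (FLS1), neither past the test. PAP2, the close relative of PAP1, had -0.57 ± 0.55, below 0 and not past the test.

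**Figure D4:**
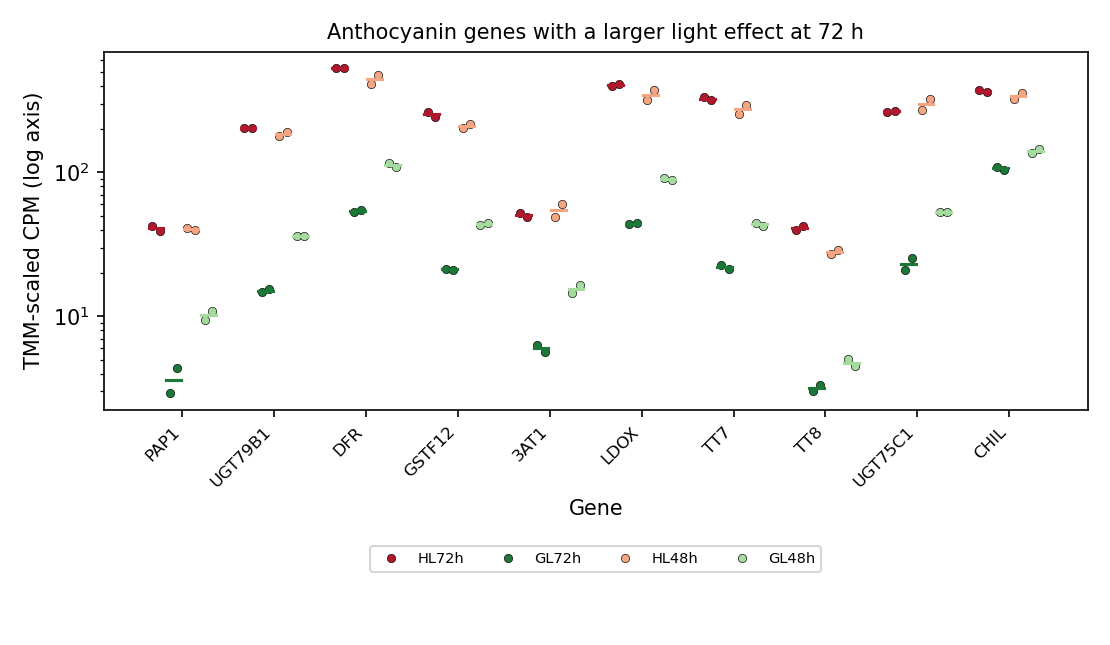
Level (y axis, TMM-scaled CPM on a log axis) of the 10 called flavonoid and anthocyanin genes (x axis) in each library, with a bar at the mean of the 2 libraries. The high light points of 72 h and 48 h lie close together in most genes, while the growth light points at 72 h lie below those at 48 h, for PAP1 at 2.91 and 4.36 against 9.44 and 10.9 CPM.

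Promoters of 3 of these genes are shown because all 3 were called in the same direction. They are the 300 bases before the annotated start, read from RefSeq's TAIR10.1 assembly on the gene's strand, in lower case with the G-box CACGTG in capitals. The G-box is a core that light-regulated bZIP and bHLH factors are known to bind, and it reads the same on both strands. PAP1 lies at chr1:21235293-21235592 on the minus strand, UGT79B1 at chr5:21938397-21938696 on the minus strand and DFR at chr5:17166033-17166332 on the minus strand.
PAP1: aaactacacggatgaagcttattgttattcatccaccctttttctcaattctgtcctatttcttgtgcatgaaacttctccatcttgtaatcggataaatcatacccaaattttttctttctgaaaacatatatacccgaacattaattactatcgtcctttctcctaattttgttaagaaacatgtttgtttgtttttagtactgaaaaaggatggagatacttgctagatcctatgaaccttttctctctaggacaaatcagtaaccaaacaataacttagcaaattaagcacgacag
UGT79B1: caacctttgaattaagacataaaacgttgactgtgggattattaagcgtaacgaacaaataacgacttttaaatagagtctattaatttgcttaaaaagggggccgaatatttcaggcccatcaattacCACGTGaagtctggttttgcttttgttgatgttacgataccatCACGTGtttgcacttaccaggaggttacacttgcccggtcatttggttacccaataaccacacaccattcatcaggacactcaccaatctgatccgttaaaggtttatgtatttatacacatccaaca
DFR: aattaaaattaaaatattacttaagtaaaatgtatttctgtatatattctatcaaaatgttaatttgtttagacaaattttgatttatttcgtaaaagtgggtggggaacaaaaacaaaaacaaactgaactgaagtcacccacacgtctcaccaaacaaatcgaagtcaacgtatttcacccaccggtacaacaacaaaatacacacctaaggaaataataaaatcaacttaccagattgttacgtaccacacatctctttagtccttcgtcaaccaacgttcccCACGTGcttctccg
UGT79B1 held 2 G-boxes, at 171 to 166 and at 128 to 123 bases before the start, DFR held 1 at 14 to 9 bases before it, and PAP1 held none in this window. Among all 30 flavonoid and anthocyanin genes 8 held a G-box, and among the promoters of 21015 tested genes 1692 did (8.05%). A match describes these letters only.

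Photoprotective genes showed few calls and mostly positive values. In the photoprotection and repair list 1 of 21 genes was called higher, none lower, and 20 of 21 values were positive with a median of 0.26. Between 72 h and 48 h 10 of the 21 were called higher in high light and none lower, and in growth light 1 was called lower. TAP38, the phosphatase that reverses state transitions, was the called member, with a change of 0.41 ± 0.09 (adjusted p = 0.0307, edgeR).

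ELIP1, an early light-induced protein of the thylakoid, stood at 2610 and 2481 CPM in high light and 27.5 and 23.8 CPM in growth light at 72 h, against 1664 and 2030 CPM in high light and 27.2 and 26.8 CPM in growth light at 48 h. High light libraries were far above growth light libraries at both times, higher at 72 h, and the change of 0.53 ± 0.17 did not pass the test (adjusted p = 0.133, edgeR). PSBS, the sensor protein of energy-dependent quenching, had an effect of 1.003 log2 at 72 h and 0.62 at 48 h, and its change of 0.39 ± 0.12 did not pass either (adjusted p = 0.112, edgeR).

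Carotenoid synthesis had 2 of 17 genes called higher, none lower, and 16 of 17 positive values with a median of 0.24. BCH1, a beta-carotene hydroxylase on the way to the xanthophylls, stood at 199.7 and 184 CPM in high light and 63.4 and 64.7 CPM in growth light at 72 h, against 121 and 143 CPM in high light and 69.1 and 77.8 CPM in growth light at 48 h. Both high light libraries at 72 h were above both at 48 h, and the growth light libraries at 72 h were the lowest of the 8. The change was 0.74 ± 0.11 (adjusted p = 0.00264, edgeR), and it was called with any 1 of the 8 libraries left out. LUT5, a hydroxylase of the lutein branch, changed by 0.38 ± 0.09 (adjusted p = 0.0469, edgeR).

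The antenna list moved in both directions, with 1 gene called higher, 1 called lower and a median of -0.08 over 21 genes. LHCB4.3 encodes a minor antenna protein of photosystem II that, unlike its relatives, is known to be induced by strong light. It had 446 and 424 CPM in high light and 63.9 and 65.8 CPM in growth light at 72 h, against 290.2 and 307 CPM in high light and 94.7 and 103 CPM in growth light at 48 h. High light libraries were higher and growth light libraries lower at 72 h than at 48 h, giving a change of 1.15 ± 0.16 (adjusted p = 0.0013, edgeR) that was called with any 1 library left out. LHCB4.2, its relative, stood at 439 and 431 CPM in high light and 1347 and 1487 CPM in growth light at 72 h, and its value was 0.20 ± 0.16 (adjusted p = 0.652, edgeR).

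LHCB1.4, a major antenna gene, stood at 1.41 and 1.98 CPM in high light and 1131 and 1227 CPM in growth light at 72 h, against 10.1 and 7.99 CPM in high light and 1504 and 1030 CPM in growth light at 48 h. It was almost off in high light at both times and lower at 72 h, and its change of -2.28 ± 0.43 was called (adjusted p = 0.013, edgeR). LHCB2.2 had -1.004 ± 0.26, which did not pass (adjusted p = 0.0635, edgeR). LHCB1 and LHCB2 genes are near-identical copies, and the rule by which reads were assigned to one of them is not given in the sources used here, so single values of these genes are uncertain. The 2 growth light libraries at 48 h also differed between themselves for this family, with 1504 and 1030 CPM in LHCB1.4 and 3864 and 2948 CPM in LHCB3.

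Genes of carbon fixation had mostly positive values. The Calvin cycle list had 1 of 20 genes called higher and 19 of 20 positive values, with a median change of 0.29 and a median effect of -0.29 log2 at 72 h and -0.57 at 48 h. CP12-2, a small regulator that binds phosphoribulokinase, was the called gene. It had 393 and 362 CPM in high light and 333 and 315 CPM in growth light at 72 h, against 230.3 and 251 CPM in high light and 333 and 374 CPM in growth light at 48 h. The high light libraries at 72 h lay above those at 48 h without overlap, the growth light libraries of the 2 times overlapped, and the change was 0.78 ± 0.14 (adjusted p = 0.0118, edgeR). The photosystem core list had 1 of 29 genes called higher, FD1, a leaf ferredoxin, with 0.58 ± 0.11, and a median of 0.17. RBCS1A stood at 12932 and 12739 CPM in high light and 15487 and 15811 CPM in growth light at 72 h, with a value of 0.11 ± 0.17 (adjusted p = 0.837, edgeR).

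Light signalling and clock genes gave single calls. Of 32 light signalling genes 2 were called higher and 1 lower. BBX32, a B-box protein that restrains light signalling, had 20.3 and 16.0 CPM in high light and 7.24 and 7.08 CPM in growth light at 72 h, against 9.44 and 10.6 CPM in high light and 8.16 and 7.53 CPM in growth light at 48 h, and changed by 0.98 ± 0.18 (adjusted p = 0.013, edgeR). The high light libraries at 72 h were above the other 6, which lay between 7.08 and 10.6 CPM. HYH, the homologue of the light regulator HY5, changed by 0.61 ± 0.14, and BBX21, an activator of HY5, by -0.46 ± 0.10. Of 29 clock genes 1 was called higher, RVE8, an activator of evening genes, at 0.58 ± 0.11, and CCA1, a core morning component, had 0.36 ± 0.13 with adjusted p = 0.192 by edgeR. Of 14 nitrogen genes 1 was called higher, the plastid glutamine synthetase GLN2, at 0.47 ± 0.11.

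Iron genes had values of both signs. The list had 2 of 29 genes called higher, none lower, and a median of 0.40. IMA1, a peptide that signals iron shortage, stood at 204 and 201 CPM in high light and 40.2 and 39.9 CPM in growth light at 72 h, against 107 and 109 CPM in high light and 34.9 and 51.0 CPM in growth light at 48 h. Its high light level at 72 h was above that of all other libraries, and its change was 1.01 ± 0.23 (adjusted p = 0.037, edgeR). BHLH39, a bHLH factor of the iron deficiency response, changed by 1.06 ± 0.26 (adjusted p = 0.0469, edgeR), and its relatives BHLH38 and BHLH100 had 1.13 and 1.08, not past the test. IRT1, the iron uptake transporter of the root epidermis, had the opposite sign, -1.39 ± 0.35, with adjusted p = 0.0516 by edgeR, and FER1, an iron storage ferritin, had -0.62 ± 0.45 with adjusted p = 0.611 by edgeR.

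The phosphate starvation list, genes that plants switch on when phosphate is scarce, had the lowest median change of all lists. In this list 3 of 15 genes were called lower and none higher, 14 of 15 values were negative, and the median change was -0.74. All 15 genes were called lower at 72 h than at 48 h of high light, with a median of -0.97, and 3 of 15 were called lower in growth light, with a median of -0.49. The median light effect was -0.16 log2 at 72 h and 0.36 at 48 h. With 1 library left out, 1 or 2 of the 15 genes were called, and with the 8 libraries alone 5.

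AT4 is a noncoding RNA that sequesters a phosphate-responsive microRNA. It had 8.07 and 4.93 CPM in high light and 22.6 and 19.9 CPM in growth light at 72 h, against 27.6 and 26.6 CPM in high light and 24.2 and 19.7 CPM in growth light at 48 h. The 2 high light libraries at 72 h were the lowest of the 8, while the 48 h high light libraries lay above all 4 growth light libraries. Its effect was -1.74 log2 at 72 h and 0.31 at 48 h, a change of -2.05 ± 0.28 (adjusted p = 0.00126, edgeR), called with any 1 library left out.

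SRG3, a glycerophosphodiester phosphodiesterase that frees phosphate from lipids, had 7.20 and 5.79 CPM in high light and 11.5 and 13.3 CPM in growth light at 72 h, against 16.2 and 22.6 CPM in high light and 18.5 and 16.8 CPM in growth light at 48 h, and changed by -1.08 ± 0.24 (adjusted p = 0.034, edgeR). PHT1;4, a phosphate uptake transporter of the root, had 10.8 and 9.64 CPM in high light and 16.5 and 17.1 CPM in growth light at 72 h, against 29.6 and 26.1 CPM in high light and 28.4 and 21.8 CPM in growth light at 48 h, and changed by -0.88 ± 0.20 (adjusted p = 0.0377, edgeR). The libraries of both genes lay lower at 72 h than at 48 h in either light, and lowest in high light at 72 h. Among the others SPX1, a phosphate sensor, had -0.74 ± 0.22, SQD1 and SQD2, which make sulfolipid in place of phospholipid, had -0.34 and -0.20, and SPX2 had 0.18, the only positive value, none of them past the test.

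Root hair markers summed to lower levels at 72 h than at 48 h in both lights. The marker sums are CPM without TMM scaling, unlike the other levels given here. For root hairs the sum was 7.70 and 12.8 CPM in high light and 69.3 and 61.6 CPM in growth light at 72 h, against 24.2 and 20.203 CPM in high light and 88.3 and 103 CPM in growth light at 48 h. Of the 7 root hair markers 3 were called lower at 72 h than at 48 h of high light, 1 was called lower in growth light and none was called in the change of effect (1 at an unadjusted p under 0.05, and none by DESeq2), and none was at 0 in all 8 libraries. The endodermis markers summed to 12.3 and 13.4 CPM in high light and 41.8 and 38.7 CPM in growth light at 72 h, against 15.2 and 12.9 CPM in high light and 39.5 and 46.1 CPM in growth light at 48 h. The part of root tissue in the results of phosphate, iron uptake and other root genes was not tested.

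Several dehydration and cold genes, a group that abscisic acid (ABA) is known to induce, had a lower effect at 72 h. Of 37 genes in this list 4 were called lower and none higher, with a median of -0.11, and 13 were called lower and 1 higher at 72 h than at 48 h of high light, against 1 called lower in growth light. RD29A, a classic ABA and cold marker, stood at 79.3 and 85.7 CPM in high light and 39.2 and 34.3 CPM in growth light at 72 h, against 202 and 234 CPM in high light and 46.2 and 42.0 CPM in growth light at 48 h. High light libraries were above growth light libraries at both times, by less at 72 h. Its effect was 1.17 log2 at 72 h and 2.31 at 48 h, a change of -1.14 ± 0.22 (adjusted p = 0.0161, edgeR).

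COR47 and ERD10 are dehydrins, proteins that protect cells from water loss. COR47 had 109 and 119.5 CPM in high light and 253 and 249.6 CPM in growth light at 72 h, against 205 and 197 CPM in high light and 237 and 241 CPM in growth light at 48 h, a change of -0.89 ± 0.19 (adjusted p = 0.0276, edgeR). ERD10 changed by -0.84 ± 0.16, and CYP707A1, which breaks down ABA, by -0.89 ± 0.18. NCED3, the rate-limiting enzyme of ABA synthesis, had an effect of 1.21 log2 at 72 h and 2.02 at 48 h, and its value of -0.81 ± 0.33 did not pass the test (adjusted p = 0.256, edgeR). RD20, another ABA-responsive gene, had 0.42, above 0 and not past the test.

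Promoters of the 3 called phosphate genes and of RD29A are shown, read as above, for the motifs of the factors known to act on such genes. RD29A was picked for show with its matches known. In the phosphate genes the capitals mark P1BS (GNATATNC, both strands), the site of the phosphate regulator PHR1, and in RD29A they mark the dehydration-responsive element core CCGAC (both strands). AT4 lies at chr5:894282-894581 on the plus strand, SRG3 at chr3:350011-350310 on the minus strand, PHT1;4 at chr2:16256857-16257156 on the plus strand and RD29A at chr5:21240417-21240716 on the plus strand.
AT4: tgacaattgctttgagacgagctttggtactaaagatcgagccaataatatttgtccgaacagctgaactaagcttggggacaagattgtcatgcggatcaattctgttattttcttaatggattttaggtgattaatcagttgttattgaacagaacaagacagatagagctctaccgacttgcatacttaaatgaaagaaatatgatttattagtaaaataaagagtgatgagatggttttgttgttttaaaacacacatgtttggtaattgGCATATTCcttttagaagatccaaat
SRG3: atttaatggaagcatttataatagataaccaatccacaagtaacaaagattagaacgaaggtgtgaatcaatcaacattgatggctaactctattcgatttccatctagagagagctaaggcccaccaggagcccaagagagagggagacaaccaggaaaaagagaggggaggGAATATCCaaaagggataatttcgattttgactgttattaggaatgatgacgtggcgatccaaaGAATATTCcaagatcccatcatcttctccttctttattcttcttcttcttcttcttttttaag
PHT1;4: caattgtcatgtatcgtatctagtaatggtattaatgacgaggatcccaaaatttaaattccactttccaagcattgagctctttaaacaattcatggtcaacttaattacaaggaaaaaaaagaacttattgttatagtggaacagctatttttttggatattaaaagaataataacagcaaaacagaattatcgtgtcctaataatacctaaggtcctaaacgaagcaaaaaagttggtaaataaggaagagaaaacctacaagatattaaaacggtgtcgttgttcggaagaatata
RD29A: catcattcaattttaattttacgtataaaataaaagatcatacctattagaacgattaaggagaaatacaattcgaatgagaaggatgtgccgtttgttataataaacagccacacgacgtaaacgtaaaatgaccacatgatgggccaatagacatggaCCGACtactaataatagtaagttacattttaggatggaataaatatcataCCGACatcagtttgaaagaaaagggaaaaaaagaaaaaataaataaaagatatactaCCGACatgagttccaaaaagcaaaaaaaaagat
AT4 held 1 P1BS match, GCATATTC at 26 to 19 bases before the start, SRG3 held 2 and PHT1;4 held none in this window. Of the 15 phosphate genes 6 held a match, and of 21015 promoters 1366 did (6.5%). RD29A held 3 of the CCGAC cores, and 8 of the 37 genes of its list and 3107 of 21015 promoters (14.8%) held at least 1. The called COR47 and CYP707A1 of the same list held no CCGAC. The core of the ABA-responsive element (ACGTG, both strands, which overlaps the G-box) was absent from the windows of RD29A and COR47 and present in that of CYP707A1, in 22 of the 37 genes and in 5614 of 21015 promoters (26.7%).

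Defence genes of the salicylic acid pathway had 2 of 25 members called lower, none higher, with a median of -0.27. PR1, the standard marker of salicylic acid signalling, stood at 0.336 and 0.161 CPM in high light and 3.19 and 4.96 CPM in growth light at 72 h, against 3.88 and 2.22 CPM in high light and 1.87 and 0.377 CPM in growth light at 48 h. High light libraries were below growth light libraries at 72 h and above them at 48 h, at low levels throughout. Its change of -5.53 ± 0.89 was called (adjusted p = 0.00792, edgeR) but not with either 72 h high light library left out, where the adjusted p reached 0.0575 by edgeR. PR5, a thaumatin-like defence protein, had 3.63 and 3.05 CPM in high light and 4.67 and 4.60 CPM in growth light at 72 h, against 14.1 and 13.3 CPM in high light and 7.01 and 5.39 CPM in growth light at 48 h, and changed by -1.63 ± 0.31 (adjusted p = 0.013, edgeR).

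Glucosinolates are sulfur-rich defence compounds of the cabbage family. In the aliphatic glucosinolate list 1 of 20 genes was called lower, 19 of 20 values were negative and the median was -0.40, with 15 genes called lower at 72 h than at 48 h of high light and none called in growth light. AOP2, the called gene, had 2.02 and 3.59 CPM in high light and 20.4 and 20.8 CPM in growth light at 72 h, against 6.30 and 7.61 CPM in high light and 18.1 and 19.4 CPM in growth light at 48 h, a change of -1.404 ± 0.26 (adjusted p = 0.0113, edgeR). MYB28, the main regulator of this pathway, had 0.02 ± 0.11, with adjusted p = 0.955 by edgeR. The indolic branch had no call among 12 genes, all 12 values were negative and the median was -0.44.

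**Figure D5:**
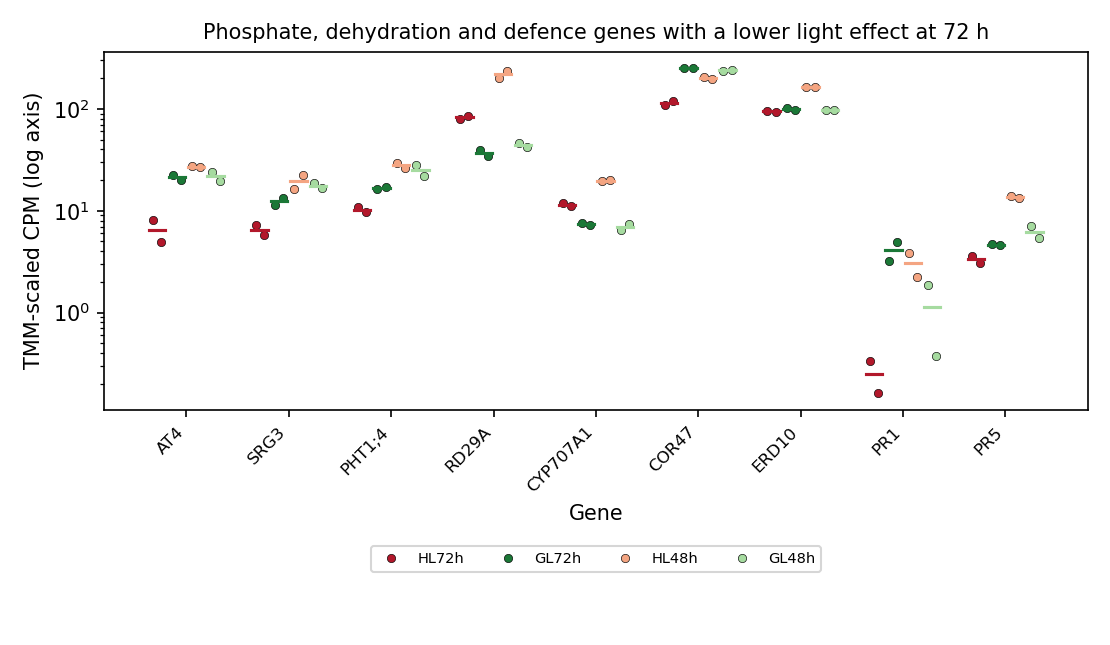
Level (y axis, TMM-scaled CPM on a log axis) of the called phosphate, dehydration and defence genes (x axis) in each library, with a bar at the mean of the 2 libraries. High light points at 72 h lie below those at 48 h in every gene shown, for RD29A at 79.3 and 85.7 against 202 and 234 CPM.

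Of 8 ribosome biogenesis genes 3 were called lower, all 8 values were negative and the median was -0.40. In growth light 6 of 8 were called higher at 72 h than at 48 h, and in high light none was called. NUC1, a nucleolin needed for ribosomal RNA processing, stood at 332 and 336 CPM in high light and 337 and 341 CPM in growth light at 72 h, against 383 and 394 CPM in high light and 279 and 298 CPM in growth light at 48 h, a change of -0.45 ± 0.11 (adjusted p = 0.0395, edgeR). High light libraries were above growth light libraries at 48 h and just below them at 72 h. NAP57, a pseudouridine synthase component, changed by -0.53 ± 0.12 and APUM24, an RNA-binding nucleolar protein, by -0.48 ± 0.12. The genes of cytosolic ribosomal proteins had no call among 23 by edgeR or DESeq2 and none at an unadjusted p under 0.05, with a median of -0.04.

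Single calls fell in 3 further lists. PDIL1-1, a protein disulfide isomerase of the endoplasmic reticulum, changed by -0.48 ± 0.10, SWEET12, a sugar exporter of the phloem, by -0.50 ± 0.12, and SAPX, the stromal ascorbate peroxidase, by -0.89 ± 0.17. SAPX had 46.4 and 43.8 CPM in high light and 95.2 and 89.6 CPM in growth light at 72 h, against 67.5 and 73.7 CPM in high light and 83.9 and 72.6 CPM in growth light at 48 h, and its effect was -1.04 log2 at 72 h and -0.15 at 48 h.

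Of the 244 called genes 204 were in none of the lists. The lowest values among these 204 were -5.00 for CYP71B22 and -4.44 for CYP716A2, cytochrome P450 genes named after their values were seen. They rest on 3 and 2 counts over both high light libraries at 72 h, so the fitted values depend on the prior count, and both fall below the 5 CPM that the naming rule asks for. AT3G16670, which encodes a protein of the Ole e 1 and extensin family, stood at 1.01 and 0.375 CPM in high light and 63.8 and 61.7 CPM in growth light at 72 h, against 8.99 and 7.99 CPM in high light and 59.8 and 32.5 CPM in growth light at 48 h. Its high light libraries at 72 h were the lowest of the 8, and the change was -4.13 ± 0.52 (adjusted p = 0.000521, edgeR). AT3G05730, which encodes a defensin-like peptide, stood at 7.67 and 8.84 CPM in high light and 205 and 201 CPM in growth light at 72 h, against 26.1 and 30.4 CPM in high light and 153 and 113 CPM in growth light at 48 h. It was lower in high light and higher in growth light at 72 h than at 48 h, with a change of -2.37 ± 0.27 (adjusted p = 0.000218, edgeR), and both genes were called with any 1 library left out.

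AT5G52390, a PAR1 family gene, differed in that high light held it up. It stood at 4.17 and 3.05 CPM in high light and 0.741 and 0.968 CPM in growth light at 72 h, against 24.4 and 17.5 CPM in high light and 0.808 and 0.678 CPM in growth light at 48 h, and changed by -2.75 ± 0.57 (adjusted p = 0.0226, edgeR). AT2G41800, annotated as a protein of unknown function, had 4.71 and 3.16 CPM in high light and 6.73 and 6.11 CPM in growth light at 72 h, against 8.99 and 8.14 CPM in high light and 3.74 and 5.08 CPM in growth light at 48 h. It was below growth light at 72 h and above it at 48 h in each library, with effects of -0.73 and 0.95 log2. The remaining decreases named by rule were AT5G02580 (-1.79), AT5G60530, a late embryogenesis abundant protein relative (-1.67), AT1G22570, a major facilitator transporter (-1.64), and AT4G00910, an aluminium-activated malate transporter relative (-1.63).

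Outside the flavonoid and anthocyanin list, 3 genes stood among the 10 largest increases of called genes with at least 5 CPM in a group. Below that level AT1G11990, an O-fucosyltransferase relative named after its values were seen, had a higher value, 2.27 ± 0.50, at no more than 1.41 CPM in any library. BGLU1, a glycosyl hydrolase, had 60.8 and 62.0 CPM in high light and 19.4 and 23.54 CPM in growth light at 72 h, against 45.3 and 53.8 CPM in high light and 39.8 and 38.2 CPM in growth light at 48 h. Growth light libraries at 72 h were the lowest of the 8, and the change was 1.17 ± 0.18 (adjusted p = 0.00407, edgeR). MLP168, a major latex protein relative, changed by 1.33 ± 0.26 and AT1G34060, a pyridoxal phosphate-dependent transferase, by 1.35 ± 0.32.

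Many lists held no call by edgeR, among them those of sulfur (15 genes), ethylene (10) and DNA repair (8). The lists of glutathione transferases and mitochondrial stress (17) and of dark-inducible and starvation genes (17) held none either. A selection of 6 others without a call is described here. They were 34 heat shock genes, 32 stress transcription factors, 30 jasmonate genes, 25 cell division genes, 29 genes of auxin and cell elongation and 17 genes of chlorophyll breakdown and senescence. With 1.14% of all tested genes called, few or no calls in lists of this size are near the background. At an unadjusted p under 0.05 there were 29 of these 167 genes (17.37%), against 2877 of all 21449 (13.41%). Both were counted on rounded p-values, and without rounding the count over all genes is the 2880 given above. DESeq2 called 1 of the stress transcription factors lower and none of the others in these 6 lists. HSFA2, a heat shock factor known to be induced by strong light, stood at 10.9 and 12.4 CPM in high light and 0.798 and 0.787 CPM in growth light at 72 h, against 11.6 and 10.1 CPM in high light and 0.723 and 0.640 CPM in growth light at 48 h. Both high light groups were far above both growth light groups and overlapped each other, and the value was -0.11 ± 0.62 (adjusted p = 0.965, edgeR). HSP101, a disaggregating chaperone, had an effect of 0.80 log2 at 72 h and 0.74 at 48 h, and ZAT10, a zinc finger repressor, had 0.77 and 0.92. A missed threshold does not show equal effects.

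Further marker genes also stayed below the threshold. GPT2, the glucose 6-phosphate translocator of plastids that strong light is known to induce, stood at 299.9 and 310.2 CPM in high light and 0.627 and 0.666 CPM in growth light at 72 h, against 425 and 421 CPM in high light and 1.53 and 1.05 CPM in growth light at 48 h, an effect of 8.87 log2 at 72 h and 8.36 at 48 h with a change of 0.51 ± 0.53 (adjusted p = 0.749, edgeR). EXPA8, a cell wall expansin, was held at 1.21 and 0.911 CPM in high light and 59.7 and 63.9 CPM in growth light at 72 h, against 0.970 and 0.917 CPM in high light and 67.5 and 59.7 CPM in growth light at 48 h. VSP2 and LOX2, a jasmonate marker and a lipoxygenase of jasmonate synthesis, had -0.39 ± 0.30 and 0.17 ± 0.28. ELIP2 had 0.97 ± 0.27, APX1, the cytosolic ascorbate peroxidase, -0.60 ± 0.18, SAG13, a senescence marker, 0.67 ± 0.84 and CDC20.1, a mitotic regulator, -0.10 ± 0.18, all with adjusted p above 0.05 by edgeR.

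APX2, an ascorbate peroxidase that strong light induces transiently, rested on few counts. Over both libraries it had 7 counts in high light and 7 in growth light at 72 h, a scaled ratio of 1.02 with an exact 95% interval of 0.304 to 3.39, and 27 counts in high light and 2 in growth light at 48 h, a ratio of 12.8 with an interval of 3.21 to 111. The intervals cover counting error only, and they overlap.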

How the data were processed

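The deposited files hold whole-number counts per gene, 1 library per file, without normalization, and the submitters' processing notes name TopHat2 2.1.1, HTSeq 0.6.0, edgeR and TAIR10. The sources used here give neither their settings nor the strand and multi-mapping rules. Libraries were stranded, poly(A)-selected and read single-end, per the labels' protocols. Counts from all 26 libraries were filtered by edgeR's filterByExpr (minimum count 10), scaled by TMM and fitted with 1 mean per group in edgeR 4.0.16 (R 4.3.3, limma 3.58.1), with quasi-likelihood tests and Benjamini-Hochberg adjustment at 0.05. The SE is the absolute log2 value divided by the square root of F, or, where F was very small, an SE from the weights of the fit. Replicates correlated at r of 0.988 to 0.994. The code was run on counts simulated with the spread estimated in this fit, with changes planted only in genes of at least 5 CPM. That run does not cover calls at lower levels or the dependence on the libraries fitted. The members and lists were chosen with earlier results of these data known. Named genes are the 10 largest and 10 lowest called values with at least 5 CPM in a group and effects that do not overlap, up to 3 called members per list, and 26 marker genes. A few other list members were chosen after their values were seen. Alternatives were RLE and upper-quartile factors, no filter, a 1 CPM filter, DESeq2 1.42.0, the replicate number as a block, the 8 libraries alone, each library left out, and, added after the data were seen, thinned counts and the 14 libraries from 24 h on. Promoter sequences came from RefSeq, assembly TAIR10.1.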

Additional observations from a re-analysis of the deposited data

Results flagged for a closer look

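The light effect differed between 72 h and 48 h in 244 genes by edgeR's test of the difference itself, and in 31 of them the effect itself was called in opposite directions at 72 h and 48 h. PR1 was one of the 31, with a change of -5.53 ± 0.89 log2 between an effect of -4.06 at 72 h and 1.48 at 48 h, at levels of at most 4.96 CPM. AT2G41800 was another, with a change of -1.68 ± 0.32 between -0.73 at 72 h and 0.95 at 48 h. The cause of these differences was not tested.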

How the results depend on the processing

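The effects at 72 h and 48 h and the count of genes within 2-fold kept within 1.5 times their values under every alternative run, while counts of change depended on the libraries fitted. For the change of effect (138 higher, 106 lower) the calls were 297 and 383 with no filter, 676 and 601 with the 8 libraries alone, and 441 and 312 with the 14 libraries from 24 h on. RLE or upper-quartile factors, the 1 CPM filter and DESeq2 stayed within 1.5 times, and thinning gave 188 calls, of which 164 were shared. No gene called in both the main fit and an alternative changed sign. With 1 library left out, whose partner is then assumed to vary like the other groups, the calls ran from 8 to 51 higher and from 7 to 50 lower. For the change in high light the 8 libraries alone gave 2334 higher and 2900 lower, and leaving 1 out 326 to 1304 higher and 490 to 1728 lower. For the change in growth light the counts were 831 and 1138 with no filter, 1429 and 1950 with the 8 libraries, 929 and 1512 with the 14, and 3 to 442 and 6 to 560 with 1 left out. Without the 2-fold threshold at 24 h, the medians at 72 h and 48 h were 0.374 and 0.384 for genes called higher there, and -0.517 and -0.497 for genes called lower. The cause was not tested.

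Of the 47 named genes that were called, 39 kept their call in every setting that used both libraries of each group, 8 to 19 kept it for a given left-out library and 6 kept it for all 8. None changed sign. Among uncalled genes near 0, leaving 1 library out gave -0.376 to 0.0696 for ZAT10, -0.0147 to 0.0544 for MYB28, -0.0781 to 0.207 for HSP101 and -0.0149 to 0.393 for EXPA8, and thinned counts gave 0.279 for HSFA2 and -0.0126 for the gene MYB28. The replicate numbers pair the samples by number only: their deviations correlated at -0.00661 to 0.0408, and with the replicate block 231 genes were called, 218 of them shared with the fit without it. The shallower 72 h libraries limit what could be called for genes with few counts, where 3 counts equal up to 0.22 CPM.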

Other observations

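Nuclear genes for subunits of the chloroplast NDH complex formed a further group with positive values. The complex returns electrons from ferredoxin to the plastoquinone pool in cyclic electron flow. The group was chosen after its values were seen, so its counts are a description. It held 17 nuclear genes, NdhL to NdhO, NdhS to NdhU, PnsB1 to PnsB5 and PnsL1 to PnsL5, and no gene of the chloroplast genome. All 17 were tested, 7 were called higher and all 17 values were positive, from 0.03 to 0.59 with a median of 0.39. Over all 21449 tested genes 0.643% were called higher and 10362 values were positive, and 6.63% were called higher at 72 h in high light. The median light effect was 0.16 log2 at 72 h and -0.26 at 48 h, and 16 of 17 genes were called higher at 72 h than at 48 h of high light, with none called in growth light. PnsL2 had the largest value, 0.59, with 97.6 and 101 CPM in high light and 76.7 and 77.7 CPM in growth light at 72 h, against 62.5 and 63.0 CPM in high light and 71.8 and 75.2 CPM in growth light at 48 h.

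Genes of the thalianol and marneral clusters, which make root triterpenes, were also picked after their values were seen. All 7 values were negative, from -3.12 to -0.69 with a median of -1.33, and 2 were called lower. CYP705A5 had 8.81 and 10.1 CPM in high light and 49.5 and 53.0 CPM in growth light at 72 h, against 18.4 and 18.8 CPM in high light and 43.4 and 36.6 CPM in growth light at 48 h. Between 72 h and 48 h the median of the 7 genes was -0.97 in high light and 0.23 in growth light. The same medians were -0.55 and -0.55 for the root hair markers and -0.27 and -0.16 for the endodermis markers, and the part of root tissue was not tested.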
